A study of Mus musculus with 17 samples.

Results

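Collagen genes other than Col4a1 and Col4a2 were examined for histone H3.3 in the newborn mouse lens. The members were the protein-coding genes of chromosomes 1 to 19 in the GENCODE vM21 annotation of mm10 whose symbols follow the collagen pattern (Col, a number, a, a number), with those 2 genes left out, which gave 40 genes of 20807. They were measured in 4 chromatin immunoprecipitation (ChIP-seq) libraries made with an antibody against H3.3, 2 from lens epithelium and 2 from lens fibers, as biological replicates. All 4 came from mice of the CD1 strain, and the labels name no allele or treatment. Lenses were microdissected into the epithelium and fibers, and the labels give postnatal day 1 in the sample titles, P0.5 in the protocol and 150 pooled lenses per sample, a number of lenses that differs from the one in the methods. In each library the authors had called islands, continuous stretches in which ChIP reads were enriched, and had counted the reads in each. The deposited lists held 10389 islands with 1331369 reads in epithelium replicate 1, 14434 with 1430373 in epithelium replicate 2, 27059 with 5041885 in fiber replicate 1 and 35940 with 5359085 in fiber replicate 2. The sequencing depth behind these lists is unknown, so a gene without an island is a gene at which none was called. Values below are given in the order epithelium replicates 1 and 2, then fiber replicates 1 and 2.

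Collagens are extracellular proteins whose chains wind into a triple helix. Fibrillar collagens form the banded fibrils of bone, skin, cartilage and the vitreous body, network collagens build sheets such as basement membranes, and the FACIT collagens (fibril-associated collagens with interrupted triple helices) sit on the surface of fibrils. The lens is wrapped in a basement membrane, the capsule, whose main collagen chains are encoded by Col4a1 and Col4a2, and it holds no fibroblasts or vessels inside it. Histone H3.3 is a variant of histone H3 that is deposited outside of DNA replication and is known for its presence at gene starts and in transcribed gene bodies.

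The sequence just before a gene start is one feature in which collagen genes differ, and it is shown for 4 of them. Each stretch is the 250 bases before the GENCODE start, read 5′ to 3′ on the strand of the gene from GRCm38.p6, the assembly behind mm10. Capitals mark every CG pair, which reads the same on both strands. The stretch of Col5a1 (chr2:27886175-27886424, plus strand) holds 28 CG pairs and was overlapped by an island in all 4 libraries. That of Col13a1 (chr10:61979109-61979358, minus strand) holds 24 and was overlapped in both fiber libraries alone. That of Col9a2 (chr4:121039135-121039384, plus strand) holds 2 and was overlapped in both epithelium libraries alone, and that of Col3a1 (chr1:45311288-45311537, plus strand) holds 0 and was overlapped in no library.
Col5a1: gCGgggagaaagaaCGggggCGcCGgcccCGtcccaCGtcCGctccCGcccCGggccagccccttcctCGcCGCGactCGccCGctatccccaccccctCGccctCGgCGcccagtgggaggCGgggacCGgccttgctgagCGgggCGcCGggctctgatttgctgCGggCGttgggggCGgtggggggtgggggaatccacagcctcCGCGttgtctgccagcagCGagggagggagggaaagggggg
Col13a1: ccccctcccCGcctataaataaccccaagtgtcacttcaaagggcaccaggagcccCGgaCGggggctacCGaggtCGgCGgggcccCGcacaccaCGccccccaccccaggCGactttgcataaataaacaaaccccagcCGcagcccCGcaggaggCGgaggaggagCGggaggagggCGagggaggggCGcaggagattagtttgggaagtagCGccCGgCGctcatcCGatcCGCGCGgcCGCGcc
Col9a2: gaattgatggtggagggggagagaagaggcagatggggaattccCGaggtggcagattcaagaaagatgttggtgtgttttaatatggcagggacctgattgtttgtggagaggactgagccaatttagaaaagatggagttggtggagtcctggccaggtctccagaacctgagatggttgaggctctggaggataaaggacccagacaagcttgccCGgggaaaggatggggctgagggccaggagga
Col3a1: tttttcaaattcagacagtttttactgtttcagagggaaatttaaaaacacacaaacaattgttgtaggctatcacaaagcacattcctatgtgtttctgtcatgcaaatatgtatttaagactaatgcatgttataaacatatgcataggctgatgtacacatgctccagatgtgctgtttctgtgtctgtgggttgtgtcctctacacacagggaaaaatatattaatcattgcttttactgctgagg

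Of the 40 collagen genes, 12 and 16 had an island in the gene body in the epithelium libraries and 16 and 19 in the fiber libraries. These are 30%, 40%, 40% and 47.5% of the collagen genes. Over all protein-coding genes the shares were 27.2%, 32.0%, 53.5% and 59.5%. The number of collagen genes with an island was 14 ± 2.83 in epithelium and 17.5 ± 2.12 in fibers (SD, n = 2), and the difference of 3.5 genes was not separated from the spread between replicates (exact two-sided permutation test, p = 0.667). With 2 libraries against 2 there are 6 splits, and the smallest p that the test can give is 0.333. When the same number of islands was taken from every library, 10389, the difference turned to -2.50 genes with the densest islands and to -3.50 with those of most reads. It was 1.5 without epithelium replicate 1, 5.50 without epithelium replicate 2 and 2.00 without fiber replicate 2. The share of collagen genes divided by the share of all genes was 1.10 and 1.25 in epithelium, and 0.748 and 0.798 in fibers. Both fiber ratios were below both epithelium ratios, a difference of -0.404 (exact two-sided permutation test, p = 0.333). This ratio was added after the values had been seen. In these bulk samples, H3.3 in a smaller share of the cells and less H3.3 per cell cannot be told apart.

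Collagen genes are long, between 7.11 and 468 kb with a median of 106 kb, against a median of 17.6 kb over all genes, and a longer gene has more room for an island. Among the 15298 genes at least as long as the shortest collagen gene, 28.9%, 34.3%, 59.1% and 66.3% had an island. Among the 2200 genes at least as long as the median collagen gene, 31.1%, 39.0%, 66.5% and 78.1% had one. The 20 collagen genes of that length had an island in 30%, 30%, 40% and 55.0% of cases. The fiber shares of the long collagen genes were thus below those of long genes in general in both replicates, as were those of all 40.

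**Figure D1:**
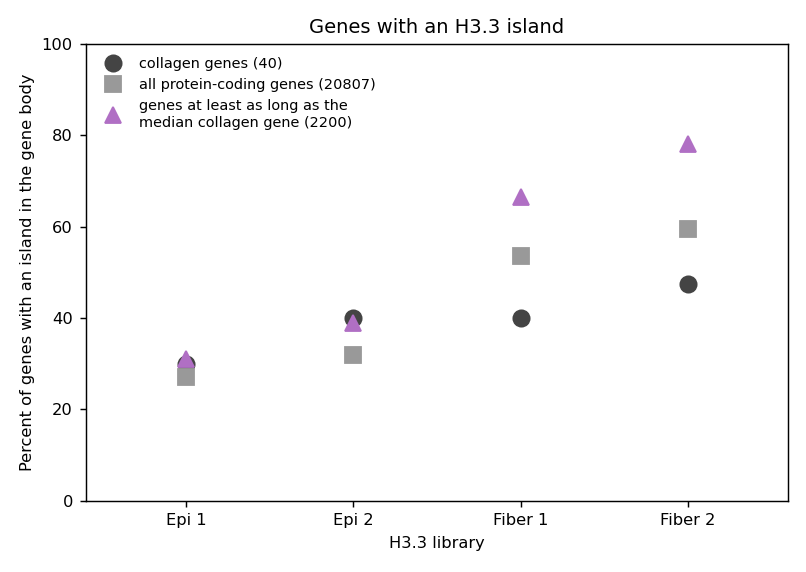
Percent of genes with a called H3.3 island in the gene body (y axis) in each of the 4 libraries (x axis), for the 40 collagen genes, all 20807 protein-coding genes and the 2200 genes at least as long as the median collagen gene; each point is 1 library. Collagen genes lie at 30% and 40% in epithelium and at 40% and 47.5% in fibers, where all genes lie at 53.5% and 59.5%.

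The part of a gene in islands was measured as the percent of its bases covered. The median over the 40 collagen genes was 0% in every library, because fewer than 20 genes had an island in each. The mean was 3.66% and 5.95% in epithelium and 7.19% and 6.69% in fibers, while all genes had means of 8.61%, 9.04%, 23.3% and 23.1%. Percent covered depends on gene length, and the 2200 long genes had means of 2.17%, 2.43%, 11.7% and 12.5%, beside 4.0%, 2.91%, 6.88% and 6.52% for the 20 collagen genes of that length. The mean of the long collagen genes was thus above that of long genes in both epithelium libraries and below it in both fiber libraries, and no test was made of this. In each epithelium library only 6 of the 20 had an island, a share below that of long genes. The most covered were Col18a1 (32.5% and 14.2%) and Col5a1 (25.7% and 17.2%), at both of which the compartments overlapped. Of the summed length of the collagen genes, 4.59 Mb, 3.0% and 3.37% lay in epithelium islands and 6.21% and 5.68% in fiber islands, a fiber to epithelium ratio of 1.87. The ratio over all genes was 4.02, from 3.36% and 3.57% to 13.7% and 14.2%. Of the summed length of the 2200 long genes, 1.74% and 1.89% lay in epithelium islands and 9.24% and 10% in fiber islands, and of that of the 20 long collagen genes 3.08%, 2.53%, 5.90% and 5.33%. The differences between compartments over the 40 collagen genes and over all genes both had the smallest possible p of the exact permutation test, 0.333.

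An island was called in all 4 libraries at 10 collagen genes, or 25.0%, against 20.0% of all genes. These were Col5a1, Col11a2, Col27a1, Col8a2, Col16a1, Col6a3, Col13a1, Col23a1, Col18a1 and Col26a1. No island was called in any library at 19 collagen genes, or 47.5%, against 35.9% of all genes. An island in both fiber libraries and no epithelium library was found at 2 collagen genes, Col4a3 and Col4a4, which is 5.00% against 16.8% of all genes. The reverse, an island in both epithelium libraries and no fiber library, was found at 1 collagen gene, Col9a2, and at 52 genes of the whole annotation, or 0.250%. The percent covered was higher in both fiber libraries than in both epithelium libraries at 7 collagen genes, or 17.5%, against 40.4% of all genes and 60.2% of the 2200 long genes. The 7 became 2, Col27a1 and Col6a3, when the same number of densest islands was taken from every library, and 11 without epithelium replicate 2 or without fiber replicate 1. It was lower in both fiber libraries at 2, or 5.00%, against 0.817% of all genes and 0.955% of the long genes. These 2 were Col9a2 and Col16a1, and they became 6 without epithelium replicate 1 and 4 without either fiber replicate. With equal island numbers per library they became 6 or 5, and with islands of at least the median density neither remained, the 2 genes then being Col2a1 and Col18a1. No test was made of such small counts.

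**Figure D2:**
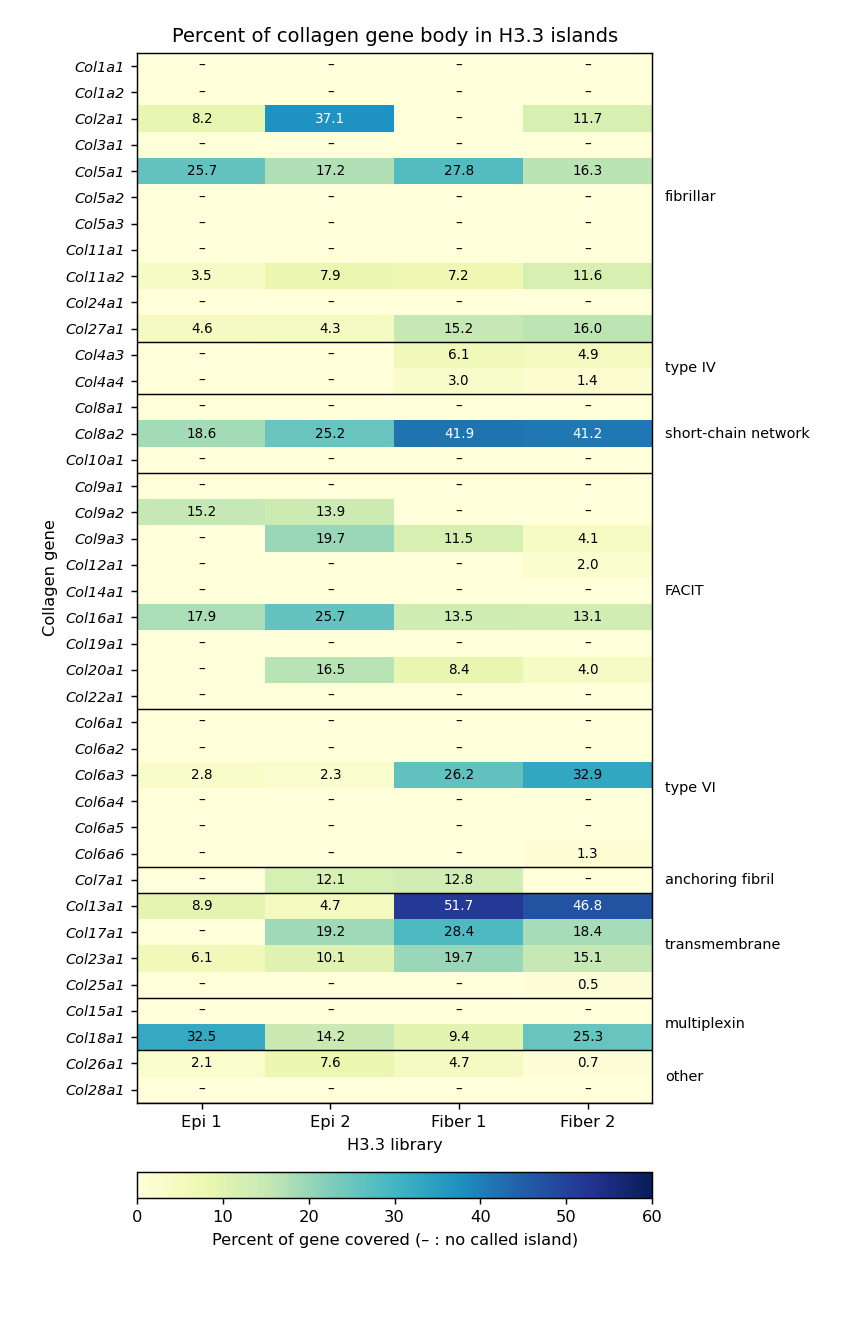
Percent of each collagen gene body in called H3.3 islands (color and printed value; a dash marks a gene with no called island) for the 40 genes (rows, grouped by collagen type) in the 4 libraries (columns). Col13a1 has the highest fiber values, 51.7% and 46.8%, and rows without any island are found among the fibrillar, short-chain, FACIT, type VI, multiplexin and remaining genes.

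Among the 11 fibrillar collagen genes, 4 and 4 had an island in the epithelium libraries and 3 and 4 in the fiber libraries. As shares, these counts are 36.4%, 36.4%, 27.3% and 36.4%, against 27.2%, 32.0%, 53.5% and 59.5% of all genes. No island was called in any library at Col1a1 and Col1a2, the chains of the main collagen of bone and skin, at Col3a1 and Col5a2, which co-assemble with it in soft tissues, or at Col5a3, Col11a1 and Col24a1. Col5a1 (chr2:27886425-28039514) encodes a type V chain that helps to start fibrils. It was covered over 25.7% and 17.2% of its length in epithelium and 27.8% and 16.3% in fibers, by 9, 9, 7 and 6 islands. The compartments overlapped at Col5a1, and the replicates of each differed more than the compartments did. An island lay on its start in all 4 libraries, with 95, 91, 337 and 237 reads over 2800, 3400, 10200 and 6400 bp, so the start island was longer in both fiber libraries. Of the length of these islands, 84.9%, 75.8%, 33.1% and 62.1% lay in Col5a1 and the rest upstream of it. Away from the start the islands lay in part at different places, and 7576 bp of the gene were in islands of all 4 libraries.

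Col2a1 (chr15:97975602-98004695), the chief collagen of cartilage and of the vitreous body, was covered over 8.25% and 37.1% in epithelium, and over 0% and 11.7% in fibers. Epithelium replicate 2 stood above the other libraries and the compartments overlapped. The stretch around 42.3% of the way along the gene was in an island in 3 of the 4 libraries, and no island reached the start. Col11a2, whose chain joins cartilage fibrils, carried 1 island at its start in every library and was covered over 3.54%, 7.94%, 7.21% and 11.6%. The islands of 3 libraries also ran into the neighboring gene Rxrb. Col27a1 (chr4:63214004-63334991), a cartilage collagen, was covered over 4.63% and 4.30% in epithelium and over 15.2% and 16.0% in fibers. The groups did not overlap, and it was the one fibrillar gene with more cover in both fiber libraries. The fiber replicates shared 12200 bp of island in Col27a1, whereas the epithelium replicates shared 0 bp.

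Type IV collagen outside Col4a1 and Col4a2 was represented by Col4a3 and Col4a4, which lie head to head on chromosome 1 and whose chains are known from the basement membranes of the kidney, ear and eye. Neither had an epithelium island. Col4a3 (chr1:82586921-82722059) was covered over 6.07% and 4.88% in fibers, by 2 islands in each replicate that shared 6200 bp between replicates, centered in replicate 1 at 8.79% and 78.6% of the way along the gene. Col4a4 (chr1:82448423-82586849) was covered over 3.03% and 1.44% in fibers, by 1 island per replicate with 100 and 57 reads. These islands of Col4a4 did not overlap each other. No island reached the start of either gene. By comparison, Col4a1 was covered over 31.3% and 43.7% in epithelium and 98.3% and 98.6% in fibers, and Col4a2 over 60.9% and 55.1% in epithelium and 98.7% and 97.2% in fibers. Every value of Col4a3 and Col4a4 was thus below every value of these main capsule chains.

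Among the 3 short-chain network collagens, Col8a1 and Col10a1 had no island, although Col8a1 and Col8a2 chains are both known from the membrane of the corneal endothelium. Col8a2 (chr4:126286793-126314330) was covered over 18.6% and 25.2% in epithelium and 41.9% and 41.2% in fibers, and the groups did not overlap. Its 3′ islands ran into the neighboring gene Adprhl2 in all 4 libraries, and in fiber replicate 1 also over the starts of Adprhl2 and Tekt2. An island over the start of Col8a2 was called in fiber replicate 2 alone. Reads shared with a neighbor cannot be assigned to either gene.

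Of the 9 FACIT genes, 2 and 4 had an island in epithelium and 3 and 4 in fibers. As shares, these counts are 22.2%, 44.4%, 33.3% and 44.4%, against 27.2%, 32.0%, 53.5% and 59.5% of all genes with an island. Col9a1, Col14a1, Col19a1 and Col22a1 had none. Col9a2 (chr4:121039385-121055322), a chain of the type IX collagen that coats type II fibrils in cartilage and vitreous, was covered over 15.2% and 13.9% in epithelium and over 0% in both fiber libraries. Its 2 epithelium islands were each 3800 bp long, lay over the start and held 114 and 106 reads. They shared 2216 bp of the gene, and 65.8% and 47.6% of the islands of their libraries were less dense, so they were of ordinary density. The other type IX chains did not share this pattern. Col9a3 was covered over 0% and 19.7% in epithelium and 11.5% and 4.14% in fibers, and its epithelium replicates disagreed. The start island of epithelium replicate 2 also ran into the gene Ogfr.

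Col16a1 (chr4:130047840-130099283), a minor collagen of many tissues, was covered over 17.9% and 25.7% in epithelium and 13.5% and 13.1% in fibers. The groups did not overlap, but the gap between the nearest values, in epithelium replicate 1 and fiber replicate 1, was smaller than the gap between the epithelium replicates. An island of epithelium replicate 2 at the 3′ end also ran into the gene Pef1. A start island was called at Col16a1 in epithelium replicate 2 and both fiber libraries. Col20a1 was covered over 0% and 16.5% in epithelium and 8.38% and 3.98% in fibers, with a start island in each of the 3 libraries that had one. That of fiber replicate 1 lay over 23.0% of its length in Col20a1 and ran into the gene Arfgap1. Col12a1 had an island in fiber replicate 2 alone, over 2.00% of the gene.

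Among the 6 type VI genes, whose chains form beaded microfibrils, Col6a3 stood apart. Col6a3 (chr1:90765923-90843971) was covered over 2.82% and 2.31% in epithelium and 26.2% and 32.9% in fibers, and held 66, 61, 702 and 805 reads in its islands. The fiber values were far above the epithelium values in both replicates, and the fiber replicates shared 17478 bp. The epithelium islands, 1 per library, lay near the 3′ end, inside the stretch also covered in fibers. No library had an island at the start of Col6a3. Its partners Col6a1 and Col6a2, whose chains assemble with that of Col6a3, had no island in the gene body in any library, although an island upstream of Col6a2 came within 1 kb of its start in fiber replicate 2. Col6a4 and Col6a5 had none, and Col6a6 had 1 in fiber replicate 2 over 1.28% of the gene. Col7a1, the collagen of the anchoring fibrils under epithelia, was covered over 0% and 12.1% in epithelium and 12.8% and 0% in fibers, so that 1 library of each compartment had an island, in both cases at the start. That of fiber replicate 1 lay over 37.9% of its length in Col7a1 and ran into the gene Uqcrc1.

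All 4 transmembrane collagens had an island in at least 1 fiber library, against 62.4% of all genes. In the epithelium libraries 2 and 3 of the 4 had one, against 27.2% and 32.0% of all genes. Col13a1 (chr10:61838236-61979108), a membrane collagen of cell contacts and of the neuromuscular junction, had the highest fiber cover of the 40 genes. It was covered over 8.94% and 4.69% in epithelium and 51.7% and 46.8% in fibers, by 3, 3, 7 and 11 islands with 347, 195, 2014 and 1895 reads. The groups did not overlap, and the fiber replicates shared 56308 bp. The epithelium replicates shared 0 bp, that is, their 3 islands each lay at different places in the gene. An island covered the start of Col13a1 in both fiber libraries and in neither epithelium library.

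Col23a1 (chr11:51289920-51583918), another membrane collagen, was covered over 6.09% and 10.1% in epithelium and 19.7% and 15.1% in fibers, by 6, 11, 12 and 12 islands. With the same number of densest islands from every library, the cover of Col23a1 was lower in both fiber libraries than in both epithelium libraries. Its most 3′ island was shared with the neighboring gene Phykpl in all 4 libraries and reached 27600 bp in fiber replicate 2. Col17a1 (chr19:47646344-47692094), the hemidesmosome collagen of basal epithelial cells, was covered over 0% and 19.2% in epithelium and 28.4% and 18.4% in fibers. Epithelium replicate 2 lay between the fiber values, so the groups overlapped at Col17a1. Col25a1, a collagen of neurons, had 1 island of 70 reads in fiber replicate 2 over 0.512% of the gene. It lay on a start that RefSeq gives 49.3 kb inside the GENCODE gene.

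Of the 2 multiplexins, which are basement membrane collagens with heparan or chondroitin sulfate chains, Col15a1 had no island. Col18a1 (chr10:77052178-77166548), the source of the fragment endostatin, was covered over 32.5% and 14.2% in epithelium and 9.42% and 25.3% in fibers, so the compartments overlapped. Islands at the 3′ end ran into the gene Slc19a1 in epithelium replicate 1 and both fiber libraries. A start island was called in the same 3 libraries. Fiber replicate 2 also had an island over a second RefSeq start of Col18a1, 52.8 kb inside the gene. Of the remaining genes, Col26a1 was covered over 2.13%, 7.64%, 4.67% and 0.713% and Col28a1 had no island.

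**Figure D3:**
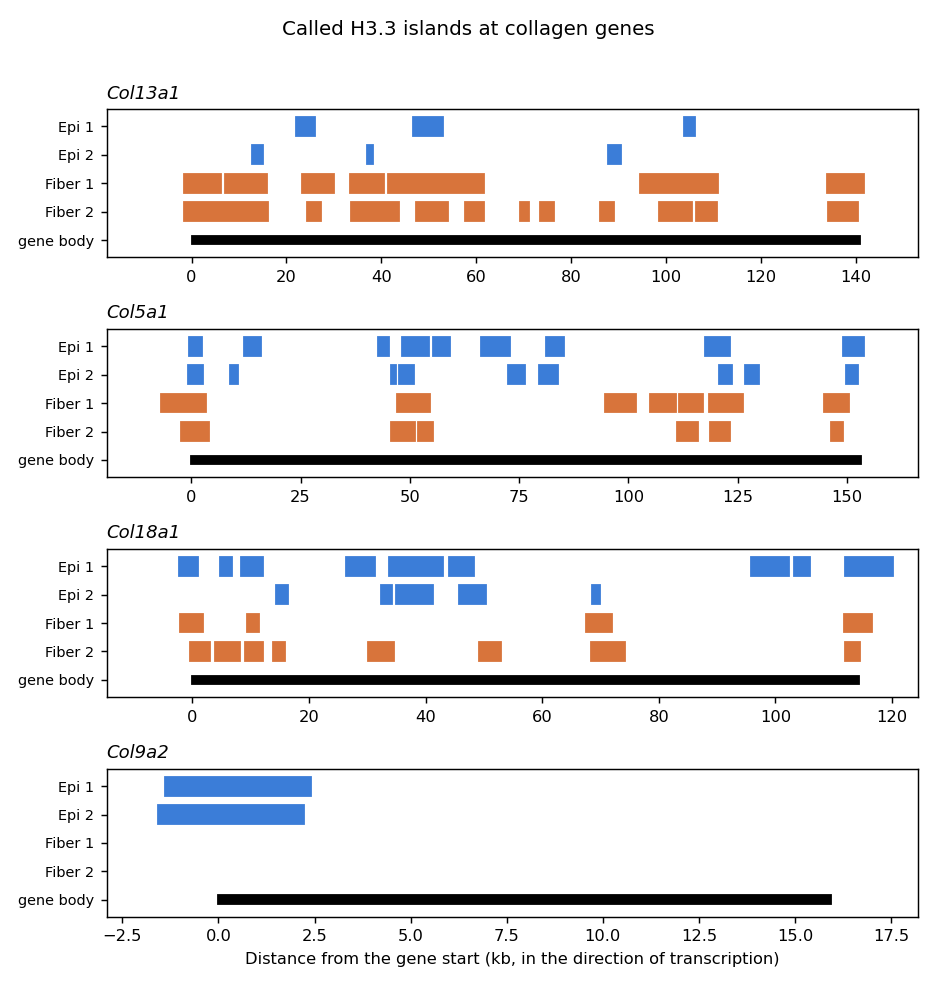
Called H3.3 islands (blue, epithelium; orange, fibers) at Col13a1, Col5a1, Col18a1 and Col9a2 in the 4 libraries, against the distance from the gene start in kb along the direction of transcription; the black bar is the gene body. Fiber islands cover 51.7% and 46.8% of Col13a1, islands of all 4 libraries lie on the start of Col5a1, and Col9a2 has a start island in the epithelium libraries alone.

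An island within 1 kb of the gene start was present at 5 and 7 collagen genes in epithelium and 8 and 12 in fibers. These are 12.5%, 17.5%, 20.0% and 30%, against 15.7%, 19.4%, 41.0% and 47.4% of all genes. The difference of 4 genes had the smallest p that the exact permutation test can give, 0.333, and turned to -1.5 when the same number of densest islands was taken from every library. It was 2.00 without fiber replicate 2 (exact permutation test, p = 0.667) and 6 without fiber replicate 1. When each gene was divided into 10 equal parts, the part at the start had the highest mean cover over the 40 genes in all 4 libraries, 6.39%, 11.5%, 17.6% and 19.7%. That part was also the highest over all genes, at 11.5%, 12.8%, 32.1% and 34.8%. Exons make up 5.34% of the collagen gene bodies, and 12.0% and 12.5% of the covered bases were exonic in epithelium against 6.91% and 6.35% in fibers. No such share was computed over all genes. Islands that ran on into a neighboring gene held 4148, 3730, 1330 and 1730 exonic bp of Col8a2. At Col23a1 such islands held 3894, 1718, 3718 and 1518 exonic bp.

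The places covered were shared in part. Of the collagen bases in islands of epithelium replicate 1, 36.3% were also in islands of epithelium replicate 2, and 32.3% the other way. The fiber replicates shared 59.2% and 64.7% of theirs. Of the bases in epithelium islands, between 33.8% and 36.6% were in the islands of a fiber library. These shares depend on the length covered, which was 137898 and 154725 bp of the collagen genes in epithelium and 285033 and 261000 bp in fibers. No collagen island was denser than 41.1 reads per kb of island. The median over collagen genes with an island was 29.7 and 27.0 reads per kb in epithelium and 27.0 and 28.5 in fibers, beside 28.5, 28.2, 27.9 and 28.2 over all genes with one. The fiber minus epithelium difference of -0.603 reads per kb was within the spread between replicates (exact two-sided permutation test, p = 0.667), and its sign turned without epithelium replicate 1 (0.746) and without fiber replicate 1 (0.172). Scaled to 1000000 reads in islands of each library, the median densities had means of 20.6 reads per kb in epithelium and 5.33 in fibers. The difference was -15.2 (exact two-sided permutation test, p = 0.333). Before scaling the means were 28.3 and 27.7, so this difference follows from the totals of reads in islands, which were larger in both fiber libraries. It is not a result about the collagen genes.

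GC content differed between collagen genes with and without islands, and its part in the result was not tested. The 21 genes with an island in at least 1 library had a median GC content of 51.0% and the 19 without one a median of 41.6%. Over all genes the medians were 47.3% and 42.4%. Of the 20 collagen genes of higher GC content, from 48.1% to 56.0%, 15 had an island, or 75%, against 81.6% of all genes at or above that GC content. Of the other 20, from 35.2% to 47.3%, 6 had an island, or 30%, against 54.6% of all genes below it. All 16 collagen genes with an epithelium island had a GC content between 47.3% and 56.0%. The GC-rich genes Col1a1 and Col6a1, at 53.9% and 54.2%, had no island. CG pairs just before the start gave a further description. At least 20 were found before 4 collagen genes (Col5a1, Col13a1, Col8a2 and Col16a1), all of which had that stretch in an island of at least 1 library, and before 20.7% of all genes, of which 81.2% had. At least 10 were found before 16 collagen genes, of which 6 had the stretch in an island, against 76.3% of all genes with as many. At least 5 were found before 28, of which 10 had, against 69.3%. The median number of CG pairs was 9 in collagen genes with the stretch in an island and 7 in those without, against 15 and 3 over all genes. Of the 40 collagen genes, 13 had the stretch in an island of at least 1 library, or 32.5%, against 50.9% of all genes. Col2a1, with 19 CG pairs, was not among them, and Col9a2 and Col20a1, with 2 and 1, were.

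**Figure D4:**
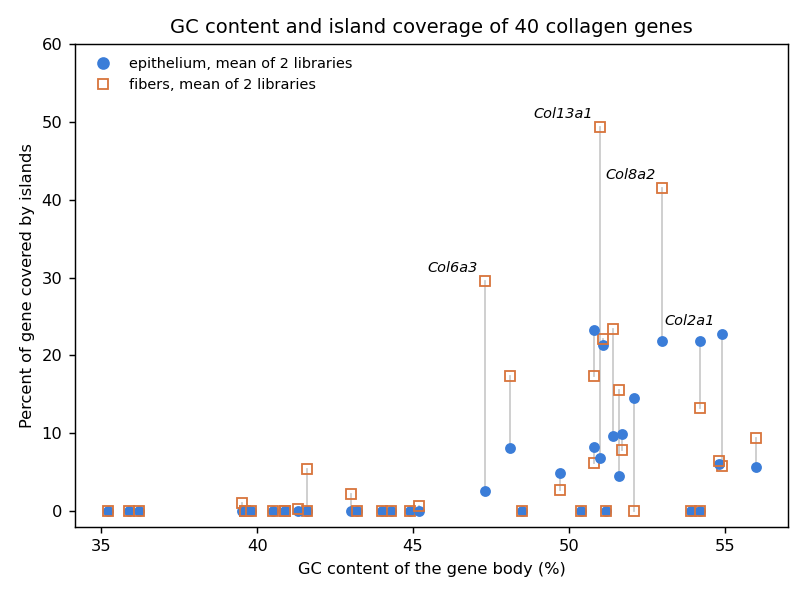
Percent of gene covered by islands (y axis) against the GC content of the gene body in percent (x axis) for the 40 collagen genes; filled blue circles are means of the 2 epithelium libraries, open orange squares means of the 2 fiber libraries, and a gray line joins the values of a gene. The 16 genes with an epithelium island lie between 47.3% and 56.0% GC, and Col13a1 and Col8a2 have the highest fiber means.

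Genes that act on collagen were set beside the collagens, in lists written with earlier results of these data known. Of 30 genes for enzymes and chaperones that modify, fold or process collagen, 15 and 12 had an island in epithelium and 26 and 26 in fibers. These are 50%, 40%, 86.7% and 86.7%, beside 27.2%, 32.0%, 53.5% and 59.5% of all genes. More cover in both fiber libraries than in both epithelium libraries was found at 21, or 70.0%, against 40.4% of all genes and 7 of the 40 collagens. P4ha1, a catalytic subunit of the prolyl hydroxylase that stabilizes the triple helix, was covered over 2.61% and 0% in epithelium and 96.8% and 100% in fibers. Its partner subunit P4hb was covered over 8.13% and 42.1% in epithelium and 74.5% and 93.8% in fibers. Serpinh1, the collagen chaperone Hsp47, was covered over 26.2% and 22.9% in epithelium and 51.7% and 89.8% in fibers. Loxl1, a crosslinking oxidase, was covered over 62.0% and 57.4% in epithelium and 85.6% and 86.6% in fibers. In each of these 4 genes the compartments did not overlap. They did overlap at Ppib, with a higher mean cover than P4ha1, P4hb or Serpinh1, which was covered over 72.2% and 0% in epithelium and 59.7% and 100% in fibers. Of the 30 genes, 6 had overlapping compartments. Plod1, Pcolce2 and Lox had no island in any library.

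Of 10 genes for collagen receptors, 3 and 3 had an island in epithelium and 6 and 6 in fibers, and 4 had more cover in both fiber libraries. These shares, 30%, 30%, 60%, 60% and 40%, were close to those of all genes. Itgb1, the common beta subunit of the collagen-binding integrins, was covered over 40.7% and 49.9% in fibers and had no epithelium island. The receptor kinase Ddr1 was covered over 5.35% and 63.3% in epithelium and 96.5% and 86.1% in fibers, and its relative Ddr2 had no island. Of 6 collagen-degrading enzymes, 2 and 2 had an island in epithelium and 3 and 2 in fibers, which is 33.3%, 33.3%, 50% and 33.3%, and Mmp9, a gelatinase, was the single one with more cover in both fiber libraries, or 16.7% against 40.4% of all genes. In a list of 12 lens capsule genes that includes Col4a1 and Col4a2, 9 and 10 had an island in epithelium and all 12 in both fiber libraries, and 10 had more cover in both fiber libraries, or 83.3% against 40.4% of all genes. The mean cover of the capsule list was 27.7% and 26.4% in epithelium and 67.7% and 64.2% in fibers, beside 3.66%, 5.95%, 7.19% and 6.69% for the other collagens.

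**Figure D5:**
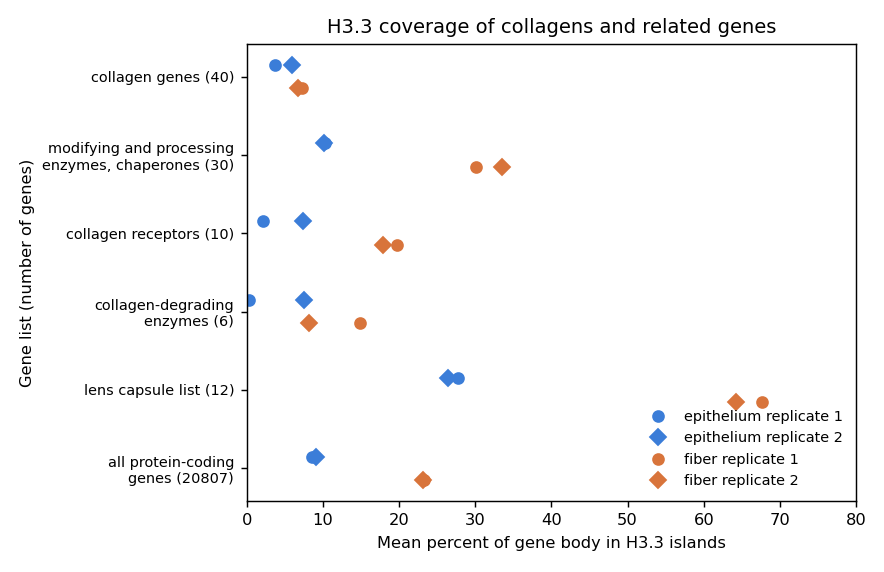
Mean percent of gene body in H3.3 islands (x axis) for the collagen genes, 4 lists of related genes and all protein-coding genes (y axis); each point is 1 library, blue for epithelium and orange for fibers, with circles for replicate 1 and diamonds for replicate 2. The collagen genes lie between 3.66% and 7.19%, and the capsule list reaches 67.7% in fibers.

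The labelled compartments were checked against marker genes, beside the 27.2%, 32.0%, 53.5% and 59.5% of all genes with an island, their mean cover of 8.61%, 9.04%, 23.3% and 23.1% and the 40.4% with more cover in both fiber libraries. Of 10 lens fiber markers, 5 and 6 had an island in epithelium and all 10 in both fiber libraries, and 9 had more cover in both fiber libraries. Crygc, Bfsp1 and Lim2 were covered over 100% in both fiber libraries and had no epithelium island. The 6 lens epithelium markers did not mark the epithelium libraries in this measure, with islands at 4, 5, 5 and 6 of them and more cover in both fiber libraries at 4. Pax6 was covered over 76.9%, 81.7%, 94.4% and 85.2%. Fibroblasts, which make fibrillar collagens, were represented by 8 markers, of which 1, 2, 1 and 2 had an island, with summary means of 0.454%, 3.18%, 5.15% and 7.80% of the gene covered. Dcn, Lum, Twist1, Fap, Thy1 and Postn had none, and Pdgfrb, the most covered, had 3.64%, 21.2%, 41.2% and 39.2%. Of 6 endothelial markers, 1, 2, 3 and 3 had an island, Kdr, Tek and Tie1 had none, and the means were 0.795%, 1.18%, 4.11% and 2.82%. Among blood and macrophage markers, Ptprc had no island in any library, Spi1 was covered over 0%, 5.99%, 13.8% and 24.6%, Csf1r over 0%, 22.8%, 27.7% and 18.9%, and Cd68, a gene of 1941 bp, over 100% in every library. Of 6 retina and pigment epithelium markers, 0, 0, 0 and 1 had an island, and of 3 cornea markers none had one. The part of other cell types in the collagen values was not tested.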

How the data were processed

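H3.3 ChIP-seq libraries of microdissected newborn lens epithelium and fibers were analysed, 2 per compartment. Reads (75 nt, single-end) had been aligned to mm10 by the authors using BWA, and islands called for each library by SICER2. Per the deposited file names, windows were 200 bp, gaps up to 600 bp were bridged and the false discovery rate was 0.01. The deposited values are counts of reads per island, not normalized. The use of the pooled input and the treatment of duplicate reads are not given in the sources used here.

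An island belonged to a gene when at least 1 bp lay in its GENCODE vM21 body. The percent covered, the reads in islands per kb of island and islands within 1 kb of the start were computed per library. Library depth is unknown, so densities were set against their own library and no counting interval was given. One value per library was compared by an exact two-sided permutation test. The p-values measure the spread between 2 pooled samples per compartment. All 40 genes could be named; those with an island in all 4 libraries, in both fiber libraries alone or in epithelium alone, and the 10 with the highest mean fiber cover are given in full. The members, lists and tests were chosen with earlier results of these data known. Alternatives left out each library, changed which islands were kept, the gene limits, the scale of reads, the summary and the start window. The same-numbered replicates were also compared as pairs.

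GC content and sequences came from GRCm38.p6, and RefSeq starts were found for 31 of the 40 genes. The calculation was tested on simulated data, and 160 of 160 values of collagen genes were identical to those of bedtools 2.31.1. Python 3.11.15, numpy 2.4.6, scipy 1.17.1 and matplotlib 3.10.9 were used. Mmp1a was not matched in the annotation. One blood marker gene is not reported here. The bisulfite libraries and the input were not analysed here.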

Additional observations from a re-analysis of the deposited data

How the results depend on the processing

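Across 95 combinations of a result and an alternative, the fiber minus epithelium number of collagen genes with an island, 3.5, became -2.50 when every library kept the same number of islands (10389) by reads per kb and -3.50 by read count, and ran from 1.5 to 5.50 with single libraries left out. The first of these also turned the number with a start island, 4, to -1.5; with single libraries left out it ran from 2.00 to 6. The median percent covered, 0, gave a difference of 0.425 with genes widened by 5 kb and 2.14 as a mean. The density difference, -0.603 reads per kb, changed sign over the library median (0.00643) and as a mean (0.135). It was 2.61 with equal island numbers by reads per kb, and -15.2 per 1000000 reads in islands, a value that follows from the library totals. With single libraries left out the unscaled difference ran from -1.95 to 0.746, being 0.746 without epithelium replicate 1 and 0.172 without fiber replicate 1. The 7 genes with more fiber cover were 2 (Col27a1 and Col6a3) with equal island numbers by reads per kb and 4 by read count, of which 3 were among the 7, and 7 to 11 with single libraries left out, with 11 without epithelium replicate 2 and 11 without fiber replicate 1. The 2 genes with less fiber cover, Col9a2 and Col16a1, were 6 with equal island numbers by reads per kb, Col23a1 among them, and 5 by read count, and 3 to 6 with single libraries left out, being 6 without epithelium replicate 1 and 4 without either fiber replicate; both genes remained in each of these counts, but neither with islands of at least the median density, where the 2 genes were Col2a1 and Col18a1. The ratio of the collagen share to the share of all genes, a measure chosen with its 8 alternatives after seeing the data, kept its direction in all 8, from -0.329 to -0.568. The cause of these changes was not tested. Pairing libraries by replicate number as a replicate block left the difference in genes with an island at 3.5, with a smallest possible p of 0.5 in the exact paired permutation test, and gave 8 genes with more and 3 with less fiber cover in both pairs; the labels give no origin of the shared numbers. The unknown depth limits what the absence of an island can say.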

Other observations

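The other type IV chains, Col4a5 and Col4a6, are on chromosome X and were not among the 40 genes. Col4a5 had no island in any library. Col4a6 had 1 island in fiber replicate 2, over 0.0648% of the gene, and none in the other 3 libraries. These values were looked up after the autosomal values had been seen.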
